A study of Mus musculus with 54 samples.

Results

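The CIR-3 line of Ba/F3-gp130 cells was compared with its parental line on 12 of the 27 arrays of the series, 6 of each line, chosen by the line and treatment named in the array titles. Ba/F3-gp130 is a mouse pro-B cell line that carries gp130 and needs Hyper-IL-6 to grow, in which interleukin-6 is joined to its soluble receptor. Parental cells are described as untransfected, and the CIR-3 line carries the third of 3 constructs of a Cargo Internalization Receptor (CIR). Both lines were grown with 10 ng/ml Hyper-IL-6, washed 4 times in PBS and held for 3 h without serum, so all groups share this withdrawal. In each line 3 arrays were unstimulated and 3 followed 1 h with 50 µl of GFP-PFC, a perfluorocarbon emulsion, per ml. The CIR-1 and CIR-2 lines, with 6 arrays each under the same conditions, entered the same model and served to show which differences the CIR-3 line did not share. The labels do not say whether a line is 1 clone or a pool, what drives the construct, or whether arrays came from separate cultures, so p-values measure the spread between these arrays, which may be technical. There is 1 line per construct, and construct and line cannot be told apart.

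The stated question of the series is how far the receptor constructs act on the cells apart from the cargo they take up. gp130 is the shared signalling chain of the interleukin-6 family and passes its signal through JAK kinases to STAT3, with SOCS3 as its feedback inhibitor. A receptor that internalizes cargo meets clathrin, endosomes and lysosomes on its way, and a membrane protein made in excess is folded in the endoplasmic reticulum. Ba/F3 cells, named a pro-B line, are also known to carry transcripts of mast cells and of early myeloid cells. Differences between lines grown apart can also be set by which cells founded each line.

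The values are log2 signals of 19938 genes, and a difference is the CIR-3 mean minus the parental mean on that scale, averaged over the unstimulated and the GFP-PFC arrays. A gene is called when its adjusted p in limma is under 0.05. Array medians over all probe sets lay between 7.521 and 7.646, and arrays of the same group correlated at 0.9925 to 0.9982 across genes. Detection calls were not used here, so 22 genes of unrelated tissues served as a guide to dim signal, and 90% of them had means under 7.78. A difference against a mean under that level is a ratio of signals. Of the defining pro-B genes, Cd79a (9.71 in parental and 10.05 in CIR-3 cells) and Cd79b (9.95 and 10.12) lay above it. Ebf1 (5.94 and 5.94), Pax5 (7.26 and 7.18), Vpreb1 (7.13 and 7.13), Igll1 (7.54 and 7.40), Rag1 (6.33 and 6.32), Rag2 (5.31 and 5.22) and Il7r (5.29 and 5.26) lay below it in both lines. Il6st, the mouse gene of gp130, was listed at 6.38 in parental and 6.33 in CIR-3 cells, below the same level, and did not pass the test (difference -0.05, SE 0.04, adjusted p = 0.476).

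The CIR-3 line differed from parental cells in a small group of genes by large amounts and in many genes by little. limma called 2342 of 19938 genes (11.7%), of which 1563 were higher (7.84%) and 779 lower (3.91%) in CIR-3 cells. The median size among the called genes was 0.20, and 51 of them differed by 1 or more, 38 higher and 13 lower. Of these 51, 49 were also called in the unstimulated arrays alone and in the GFP-PFC arrays alone. The middle of the array medians over the 19938 genes was 7.87, a limit that splits them about evenly. Among the 9975 bright genes, with a mean above 7.87, 1910 were called, which is 14.5% of these genes higher and 4.66% lower. Of the 9963 dimmer genes 432 were called. Counts in lists of bright genes are therefore read against the shares of bright genes. Without the block for the array numbers 768 genes were called, and without parental array 1 the count was 3575. The share of called genes that were higher was 66.7% as deposited, 53.3% after quantile normalization and 89.9% with arrays centred on their medians, so the small differences have no settled balance of directions.

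The sequences below are the 250 bases before the annotated start of the gene with the largest rise, of 2 germline genes that were higher together, and of the gene with the largest fall, from RefSeq on GRCm38.p6. They are shown because these genes carry the main contrasts, and CpG dinucleotides, the sites of DNA methylation, are in capitals.
Gm773, chrX:56212882-56213131, - strand: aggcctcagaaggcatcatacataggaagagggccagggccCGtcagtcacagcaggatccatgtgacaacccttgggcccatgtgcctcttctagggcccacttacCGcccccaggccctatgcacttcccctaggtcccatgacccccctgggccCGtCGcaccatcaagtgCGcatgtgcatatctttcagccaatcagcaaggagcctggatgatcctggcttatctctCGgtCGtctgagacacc
Tdrd9, chr12:111971309-111971558, + strand: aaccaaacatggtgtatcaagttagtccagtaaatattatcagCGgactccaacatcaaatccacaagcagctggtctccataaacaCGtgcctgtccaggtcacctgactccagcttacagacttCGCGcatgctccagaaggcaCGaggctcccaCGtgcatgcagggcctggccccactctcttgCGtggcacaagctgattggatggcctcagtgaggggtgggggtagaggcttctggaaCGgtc
M1ap, chr6:82946672-82946921, + strand: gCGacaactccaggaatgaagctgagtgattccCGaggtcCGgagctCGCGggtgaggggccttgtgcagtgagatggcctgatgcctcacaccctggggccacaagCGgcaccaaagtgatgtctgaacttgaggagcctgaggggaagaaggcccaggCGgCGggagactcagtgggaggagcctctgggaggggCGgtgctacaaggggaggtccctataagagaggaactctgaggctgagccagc
Fcer1a, chr1:173227230-173227479, - strand: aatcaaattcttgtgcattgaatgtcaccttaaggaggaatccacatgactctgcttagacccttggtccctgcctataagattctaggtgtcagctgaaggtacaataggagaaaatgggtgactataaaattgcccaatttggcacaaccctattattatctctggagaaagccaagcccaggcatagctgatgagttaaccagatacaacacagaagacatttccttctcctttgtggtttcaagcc
Gm773 has 7 CpGs in this window, Tdrd9 8 and M1ap 9, against a median of 6 over 32851 promoter windows of the same length. The 20 largest rises as a set were not richer in CpGs. The 17 of them with a window had a median of 5, and the 17 with a window among the 20 largest falls had 3. The Fcer1a window has 0, which is shared by 7.87% of all windows. The E-box CACGTG, searched on both strands, lies in the Tdrd9 window and in 6.02% of all windows. The GATA-type motif AGATAA, also searched on both strands, lies in the windows of Fcer1a and Gm773 and in 9.99% of all windows. The RUNX-type motif TGTGGT, searched the same way, lies in the Fcer1a window and in 14% of all windows. These matches are descriptions of letters, and binding was not measured.

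Gm773 had the largest rise. Its signal was 4.42 to 4.95 (median 4.62) in the 6 parental arrays and 9.65 to 10.42 (median 9.81) in the 6 CIR-3 arrays. The groups lie far apart, and the CIR-1 arrays (4.69 to 5.00) and CIR-2 arrays (4.82 to 5.04) stayed near the parental ones. The fitted difference from parental cells was 5.22 (SE 0.09, adjusted p = 8.31e-17), a 37.3-fold ratio of signals from a dim start. The differences from CIR-1 (5.04) and CIR-2 (4.94) were as large. At exon level all 7 probe sets of Gm773 were called higher, by 2.10 to 6.71.

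2 genes of the germ line were high in CIR-3 cells. Tdrd9 encodes a tudor-domain helicase of the piRNA pathway that silences transposons in male germ cells. It read 7.0 to 7.31 (median 7.18) in parental and 10.81 to 11.04 (median 10.97) in CIR-3 arrays. The gap was about as wide against CIR-1 (7.41 to 7.65) and CIR-2 (7.32 to 8.01). The difference was 3.79 (SE 0.09, adjusted p = 2.19e-15), and 34 of its 35 exon-level probe sets were called higher. M1ap, a gene of male meiosis, read 8.04 to 8.61 (median 8.08) in parental and 11.20 to 11.86 (median 11.44) in CIR-3 arrays, a difference of 3.29 (SE 0.13, adjusted p = 1.14e-11). It was partly raised in CIR-1 (9.48 to 10.47) and CIR-2 (9.04 to 9.30), and CIR-3 stood 1.5 above CIR-1 (adjusted p = 5.64e-07). Of 28 measured germline and X-linked lymphocyte-regulated genes 5 were called higher and 0 lower, with a list median of -0.06 beside -0.02 over all genes. The other 3 were Xlr, 3830403N18Rik and Tdrd7. Xlr was 1.69 higher (SE 0.12) and 3830403N18Rik 1.22 higher (SE 0.11), but both stood far higher in CIR-2, where Xlr averaged 10.2 against 7.28 in CIR-3 cells. Tdrd7 was 0.26 higher (SE 0.05, adjusted p = 0.00174, and 0.0521 without the block).

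**Figure D1:**
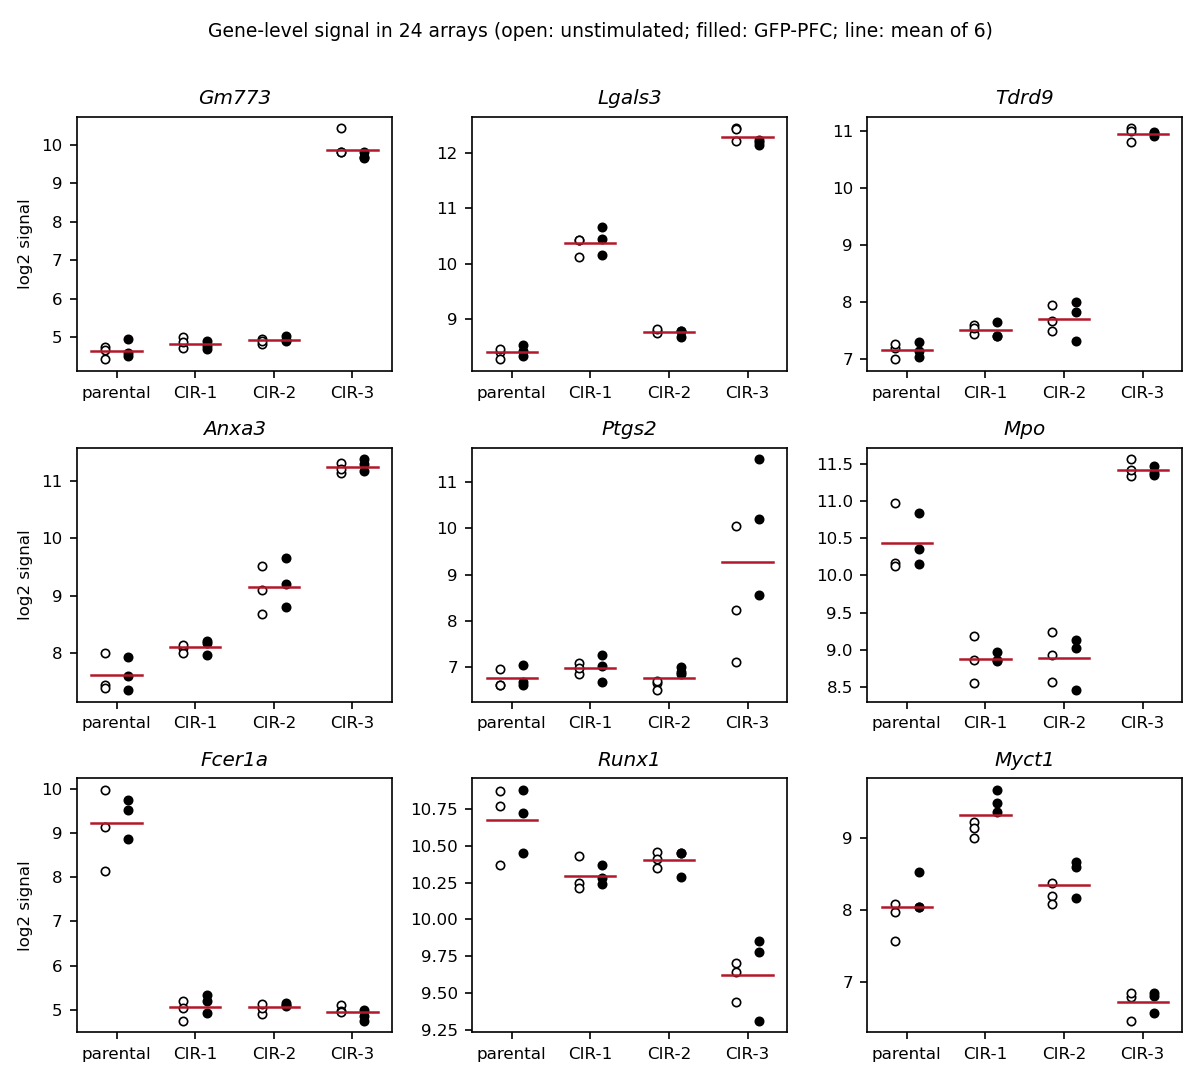
Log2 signal (vertical axis) of 9 genes in each of the 24 arrays, by line (horizontal axis); open circles are unstimulated, filled circles GFP-PFC arrays, and red lines the means of 6 arrays. Gm773 and Tdrd9 are high in CIR-3 arrays alone among these lines, Ptgs2 spreads from 7.12 to 11.50 in CIR-3 cells, and Fcer1a is near 5 in all 3 CIR lines.

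Galectins and annexins, proteins that bind glycans or membrane phospholipids, held 2 of the 4 largest rises. Lgals3, galectin-3, binds damaged endosomes and lysosomes among other roles. It read 8.27 to 8.53 (median 8.42) in parental and 12.15 to 12.44 (median 12.23) in CIR-3 arrays. No array of another line came near, since CIR-1 reached 10.66 and CIR-2 8.82. The difference was 3.87 (SE 0.07, adjusted p = 8.31e-17), a 14.6-fold ratio. Anxa3 read 7.35 to 7.99 (median 7.51) in parental and 11.14 to 11.38 (median 11.25) in CIR-3 arrays, a difference of 3.64 (SE 0.11, adjusted p = 1.53e-13). CIR-2 lay between, at 8.68 to 9.66. Of the 28 genes of this list 9 were called higher and 2 lower, with a median of 0.05. Anxa2 was 0.65 higher (SE 0.05), Anxa5 0.33 (SE 0.08) and Lgals1 0.26 (SE 0.04). The call of Anxa5 ended without CIR-3 array 3 (adjusted p = 0.0719) or 4 (0.0653), without parental array 3 (0.0665) or 4 (0.0588), in the 12 compared arrays alone (0.0665) and with the exon-level values (0.0524). Anxa1, a regulator of inflammation, was lower by 1.02 (SE 0.09, adjusted p = 6.95e-07) and Lgals9 was lower by 0.71 (SE 0.12, adjusted p = 0.000577). The fall of Anxa1 was shared, with means of 7.71 in CIR-1 and 7.97 in CIR-2 cells, against 8.12 in CIR-3 and 9.14 in parental cells.

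Further genes stood apart in the CIR-3 line. Wfikkn2, a secreted protease inhibitor that binds myostatin, read 6.98 to 7.24 in parental and 9.61 to 9.86 in CIR-3 arrays, a difference of 2.64 (SE 0.05, adjusted p = 8.31e-17). CIR-1 (6.91 to 7.36) and CIR-2 (7.10 to 7.25) overlapped the parental range. Wfdc15a, a whey-acidic-protein domain gene, was 2.95 higher (SE 0.08), while its neighbour Wfdc15b differed by -0.03 (SE 0.06, adjusted p = 0.832). Nxt2, an mRNA export factor on the X chromosome, was bright in all lines and rose from 10.13 to 11.59 (difference 1.45, SE 0.05). Aoc1, diamine oxidase, read 7.64 to 8.57 in parental and 9.08 to 9.82 in CIR-3 arrays (difference 1.39, SE 0.19, adjusted p = 7.62e-05), and was lower in CIR-1 and CIR-2 than in parental cells. The secretoglobin Scgb1c1 (1.90, SE 0.09) and the chaperone Hspa2 (1.46, SE 0.05) were also higher than in all 3 other lines. In all, 327 genes (1.64%) were called against parental, CIR-1 and CIR-2 cells in the same direction. Of these 261 were higher and 66 lower, and the same rule gave 174 higher and 81 lower after quantile normalization and 442 and 17 with centred arrays. As deposited, 15 of the higher and 3 of the lower genes differed by 1 or more from each line. The 3 contrasts share the CIR-3 arrays. Without the block 94 genes stood apart, and the count was 209, 209 and 203 without CIR-3 arrays 3, 5 and 6.

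Other large rises were shared at least in part. Akr1b8, an aldo-keto reductase, was 2.92 higher than in parental cells (SE 0.11, adjusted p = 3.91e-12), but differed from CIR-2 by 0.22 (adjusted p = 0.206). F5, coagulation factor V, was 2.18 higher (SE 0.13) and differed from CIR-1 by 0.38 (adjusted p = 0.0856). Lcn2, the iron-carrier binding protein lipocalin-2, was 1.48 higher (SE 0.16) and read 12.10 and 12.08 on average in CIR-1 and CIR-2 cells, against 11.78 in CIR-3. Flt1, a VEGF receptor, was 1.39 higher (SE 0.08) and differed from CIR-2 by -0.12 (adjusted p = 0.359). Gm4907 was 1.89 higher (SE 0.09) and differed from CIR-1 by 0.03 (adjusted p = 0.868). Lbp, the lipopolysaccharide binding protein, was 1.41 higher (SE 0.16) and differed from CIR-2 by 0.38 (adjusted p = 0.162). The kinase gene Prkd3 was 1.73 higher (SE 0.09), with CIR-1 and CIR-2 means of 8.06 and 7.86 between those of parental (6.75) and CIR-3 cells (8.48).

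Compared with each of the other receptor lines, 1415 genes (7.10%) were called against CIR-1 and 1569 (7.87%) against CIR-2, and 57 and 45 of them differed by 1 or more. Slc14a1, a urea transporter, read 7.09 to 7.25 in parental and 7.18 to 7.37 in CIR-3 arrays (difference 0.10, SE 0.13, adjusted p = 0.661). CIR-3 differed from CIR-1 cells by -2.83 and from CIR-2 cells by -1.74 (adjusted p = 7.54e-11 and 8.67e-08).

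**Figure D2:**
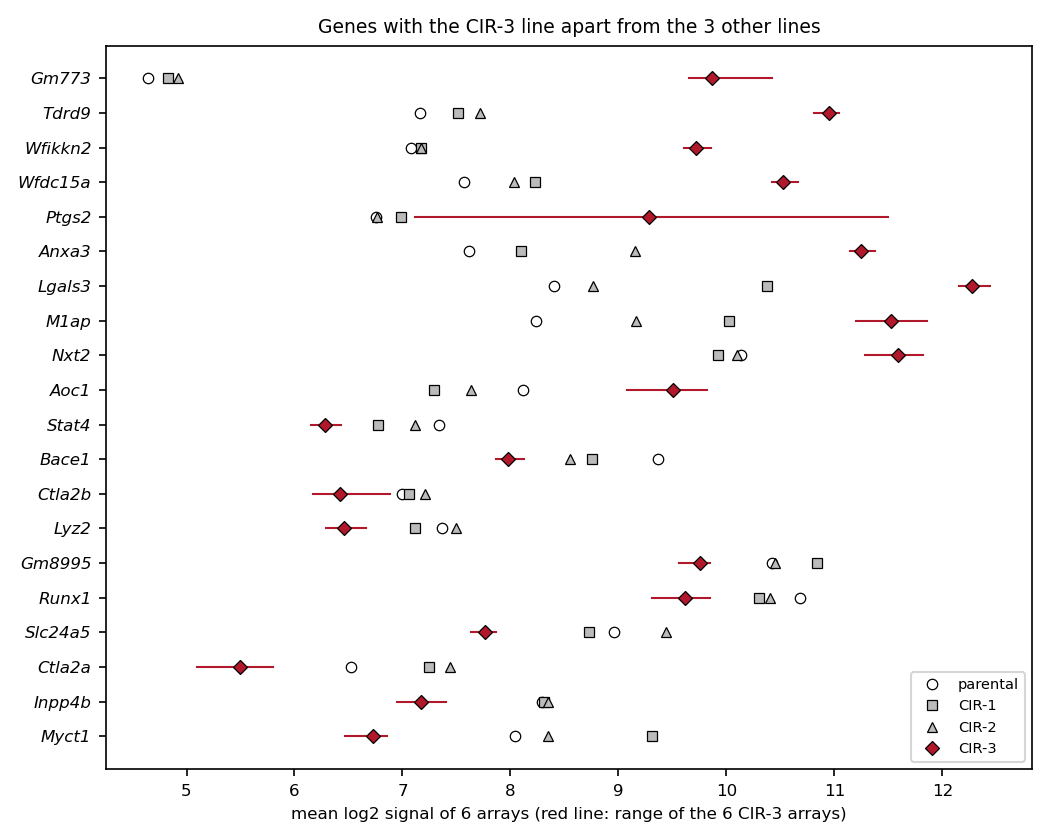
Mean log2 signal (horizontal axis) of the 10 higher and 10 lower genes with the largest smallest difference between CIR-3 and the 3 other lines; symbols mark the lines (n = 6 arrays each) and red lines the range of the CIR-3 arrays. Gm773 lies 4.94 above the nearest other line, Myct1 1.31 below it, and Ptgs2 has the widest range.

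The largest fall was that of Fcer1a, the ligand-binding chain of the high-affinity IgE receptor of mast cells and basophils. It read 8.15 to 9.98 (median 9.33) in parental and 4.75 to 5.11 (median 4.96) in CIR-3 arrays. The groups do not overlap, and CIR-1 (4.75 to 5.34) and CIR-2 (4.91 to 5.15) were as low. The difference was -4.29 (SE 0.18, adjusted p = 1.95e-11), and CIR-3 differed from CIR-1 by -0.13 (adjusted p = 0.69). The other chains of the receptor were higher. Ms4a2, the beta chain, was 0.59 higher (SE 0.13, adjusted p = 0.00689, and 0.0719 in the 12 compared arrays alone) and Fcer1g, the gamma chain, 0.39 higher (SE 0.04, adjusted p = 3.72e-06). Of 21 measured mast cell and basophil genes 4 were called higher and 6 lower, with a median of -0.09. The mean log2 level of this list was 8.08 to 8.40 in parental and 7.94 to 8.19 in CIR-3 arrays. Gata2, a transcription factor of mast cells and progenitors, was 0.30 higher (SE 0.04), and Hdc, which makes histamine, was lower by 0.48 (SE 0.14). The proteases Cma1, Cpa3, Mcpt8 and Tpsb2 differed by -0.24 to -0.14 at means under 7.78 in both lines. Without the block the calls of Hdc (adjusted p = 0.114), Cpa3 (0.0862), Mcpt8 (0.337) and Tpsb2 (0.226) ended.

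C-type lectin receptor genes were called in both directions. Clec4e, known as Mincle, read 9.08 to 10.07 (median 9.59) in parental and 7.18 to 8.57 (median 7.86) in CIR-3 arrays, a difference of -1.76 (SE 0.14, adjusted p = 8.52e-08). Its neighbour Clec4d was lower by 0.53 (SE 0.07) and Clec5a was lower by 0.74 (SE 0.17, adjusted p = 0.00813). CIR-1 and CIR-2 were also low for Clec4e, at 7.76 and 8.00 on average. Clec12a, an inhibitory receptor of myeloid cells, went the other way by 0.72 (SE 0.21, adjusted p = 0.0371), and this call ended without the block (adjusted p = 0.139). It was kept in 13 of 24 alternatives, and 0 of 7 exon-level probe sets of Clec12a were called. Of 32 Fc receptor and C-type lectin genes 4 were called higher and 7 lower (median -0.08).

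The granule genes Mpo, Gzmb and Lyz2 differed from the other receptor lines as well as from parental cells. Lcn2, of the neutrophil and monocyte list, did not pass against CIR-1 or CIR-2 (adjusted p = 0.237 and 0.26). Mpo, myeloperoxidase, read 10.12 to 10.97 (median 10.26) in parental and 11.33 to 11.56 (median 11.39) in CIR-3 arrays. All CIR-3 arrays lay above all parental ones, and CIR-1 (8.56 to 9.19) and CIR-2 (8.46 to 9.24) lay below both. The difference was 0.98 from parental cells (SE 0.10, adjusted p = 2.66e-06), 2.53 from CIR-1 and 2.52 from CIR-2. Gzmb, granzyme B, followed the same order, with means of 13.28, 13.82, 11.99 and 11.42 in parental, CIR-3, CIR-1 and CIR-2 cells. Its difference from parental cells was 0.53 (SE 0.17, adjusted p = 0.0449, and 0.062 without the block). This call was kept in 11 of 24 alternatives, with an adjusted p of up to 0.133, and 0 of 7 exon-level probe sets were called. Lyz2, lysozyme, went the other way and was lower by 0.91 in CIR-3 than in parental cells (SE 0.06, adjusted p = 6.89e-09). Its means were under 7.78 in both lines. Of 27 neutrophil and monocyte genes 4 were called higher and 1 lower (median 0.01). Of 20 T and NK cell genes 0 were called higher and 1 lower (5%), and of 19 erythroid and megakaryocyte genes 4 were called higher and 0 lower (21.1%). In CIR-1 and CIR-2 cells 9 and 10 genes of the erythroid list were higher than in parental cells. CIR-3 cells were lower than CIR-1 at 8 of these list genes and lower than CIR-2 at 7, with 0 higher. Mean log2 levels of the T and NK list ran from 6.45 to 6.73 in parental and from 6.48 to 6.59 in CIR-3 arrays. Whether cells of another kind take part in these differences was not tested, and fewer cells of a kind and less RNA per cell cannot be told apart.

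Transcription factors and signalling genes were among the falls. Runx1, a transcription factor of blood stem and progenitor cells, read 10.37 to 10.88 (median 10.74) in parental and 9.31 to 9.85 (median 9.67) in CIR-3 arrays. Parental and CIR-3 arrays do not overlap, and CIR-1 (10.21 to 10.43) and CIR-2 (10.29 to 10.46) lay above the CIR-3 arrays and overlapped the lowest parental values. The difference was -1.06 (SE 0.07, adjusted p = 9.35e-09), and 10 of 12 exon-level probe sets were called lower. Stat4, which relays interleukin-12 signals, was lower by 1.06 (SE 0.08, adjusted p = 4.76e-08) and below the dim level in both lines. Inpp4b, a phosphoinositide phosphatase, was lower by 1.12 (SE 0.07, adjusted p = 9e-09), and CIR-1 and CIR-2 stood at 8.31 and 8.35 beside 8.29 in parental cells. Myct1, a gene named as a target of Myc, read 7.57 to 8.53 in parental and 6.47 to 6.86 in CIR-3 arrays (difference -1.31, SE 0.08), while CIR-1 reached 9.0 to 9.66. Bace1, a protease that cleaves the amyloid precursor, was lower by 1.38 (SE 0.06) and the exchanger gene Slc24a5 was lower by 1.19 (SE 0.06). Ctla2a, an inhibitor of cysteine proteases, was lower by 1.03 (SE 0.18), its relative Ctla2b was lower by 0.57 (SE 0.11), and Gm8995 was lower by 0.67 (SE 0.05). Falls with the CIR-1 and CIR-2 means nearer to CIR-3 than to parental cells included Mettl7b (-1.57), C1ra (-1.25), Cst7 (-0.85) and Trf, transferrin (-0.76, SE 0.06). Gask1b fell by 0.82 (SE 0.07) but stood 1.80 and 1.85 above CIR-1 and CIR-2. Npl, Tnfsf4 and Smpdl3b differed by -0.85, -0.79 and -0.69.

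The line difference was also tested in each condition. The CIR-3 line differed from parental cells at 1094 genes (5.49%) in unstimulated arrays and at 620 genes (3.11%) in GFP-PFC arrays, counts that fell to 268 and 226 without the block. The unstimulated count was 2364 without parental array 1 and 449, 490 and 548 without CIR-3 array 3 or parental arrays 3 or 5. The test of the difference between the conditions called 0 of 19938 genes (0%), with 683 genes at an unadjusted p under 0.05 and a smallest adjusted p of 0.49. A missed threshold does not show that the lines respond alike, and the intervals show what the arrays allow. For Lgals3 the difference changed by -0.22 with GFP-PFC (95% interval -0.51 to 0.07), for Tdrd9 by 0.00 (-0.36 to 0.36) and for Fcer1a by -0.41 (-1.16 to 0.34).

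Ptgs2 and Gm4907 lay farthest from equality among the large rises. Ptgs2, the inducible cyclooxygenase of prostaglandin synthesis, read 6.61 to 7.04 in the 6 parental arrays. In CIR-3 cells the unstimulated arrays read 7.12, 8.23 and 10.05 and the GFP-PFC arrays 8.57, 10.21 and 11.50. All CIR-3 arrays lay above all parental ones, and they differed among themselves more than those of any other gene in the plot of values by array. In each condition the CIR-3 signal rose with the array number. The difference was 1.74 unstimulated (adjusted p = 0.0501, so not called) and 3.31 with GFP-PFC (adjusted p = 0.000565). The mean of both conditions was 2.52 (SE 0.35, adjusted p = 1e-04). The change of 1.58 between them (SE 0.70, 95% interval 0.09 to 3.06) had an adjusted p of 1. Gm4907 had the smallest interaction p, with differences of 1.41 and 2.37 and a change of 0.96 (SE 0.17, 95% interval 0.60 to 1.33, adjusted p = 0.49). Serpinb6b (-0.57), Il1f9 (0.38), Acte1 (0.44) and Slc40a1 (0.40) came next, all with means under 7.78 and adjusted p values of 0.49 to 0.54.

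**Figure D3:**
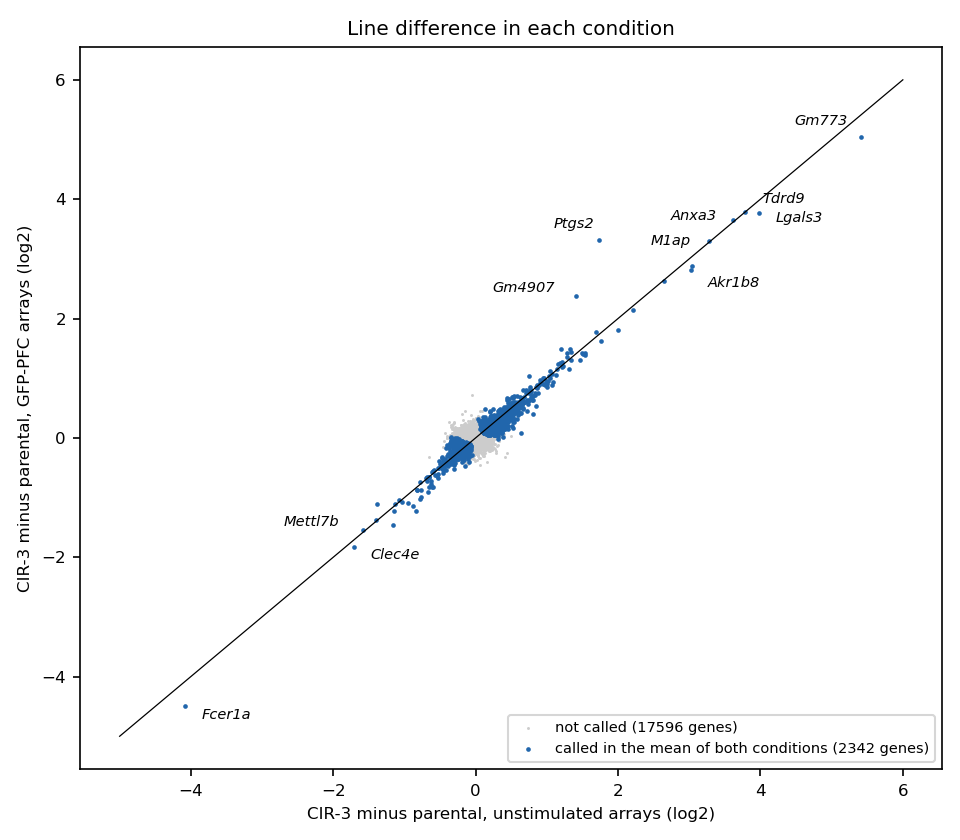
Difference of CIR-3 from parental cells on the log2 scale in unstimulated (horizontal axis) and GFP-PFC arrays (vertical axis), 1 point per gene, n = 3 arrays a group; blue points are the 2342 called genes and the line marks equal differences. Most named genes lie on the line, and Ptgs2 and Gm4907 lie above it.

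Some cytokine signalling genes were called higher. Of 27 early targets of STAT3 and STAT5, 9 were called higher and 0 lower (33.3% of the list), with a median of 0.07, and 6 higher and 0 lower without the block. Socs3, the feedback inhibitor, read 9.25 to 9.95 in parental and 9.10 to 10.54 in CIR-3 arrays, and the difference was 0.03 (SE 0.11, adjusted p = 0.912). Gadd45g, a stress-response gene, was 0.52 higher (SE 0.08, adjusted p = 0.000153), Id2, an inhibitor of differentiation factors, 0.56 (SE 0.10, adjusted p = 0.000894) and the survival gene Bcl2l1 0.41 (SE 0.05, adjusted p = 4.35e-05). Pim2, a survival kinase, was 0.56 higher (SE 0.07, adjusted p = 5.43e-05, but 0.274 without the block). Pim2 and Bcl2l1 did not pass against CIR-1 (adjusted p = 0.265 and 0.0729) or CIR-2 (0.402 and 0.443). Gadd45g did not pass against CIR-1 (0.102) but did against CIR-2 (0.0177), and Id2 passed against both (0.000111 and 0.000341). In this list 2 genes were called higher and 1 lower against CIR-1, and 3 and 1 against CIR-2. Of 28 cytokine receptor, JAK and STAT genes 8 were called higher and 0 lower (28.6%, median 0.06), and 2 and 0 without the block. Il2ra, the alpha chain of the interleukin-2 receptor, read 9.93 to 10.94 in parental and 10.89 to 13.03 in CIR-3 arrays, ranges that overlap slightly. Its difference was 1.46 (SE 0.23, adjusted p = 0.000338), and 0.0883 without the block. Csf2ra was 0.34 higher (SE 0.05), Epor 0.30 (SE 0.04), Stat3 0.20 (SE 0.04) and Jak1 0.17 (SE 0.04). Without the block the calls of Stat3 (adjusted p = 0.0748) and Jak1 (0.161) ended. With quantile normalization 9 and 6 members of these lists were called higher, and with centred arrays 9 and 9, with 0 lower in each.

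More lysosome genes were called higher than lower in CIR-3 cells against each of the 3 other lines. Of 30 measured genes 9 were called higher and 1 lower against parental cells (33.3%, median 0.07), 8 and 0 against CIR-1 and 6 and 0 against CIR-2. In the same model the counts for CIR-1 and CIR-2 against parental cells were 2 higher and 4 lower, and 1 higher and 1 lower. Of the 30 genes 27 were bright, and bright genes in general leaned higher. A fit limited to the 9975 bright genes called 1185 higher and 466 lower against CIR-1, and 1489 and 494 against CIR-2. Neu1, the lysosomal sialidase, read 8.98 to 9.21 in parental and 9.50 to 9.84 in CIR-3 arrays with no overlap, a difference of 0.49 (SE 0.06, adjusted p = 3.03e-05). Man2b1, a mannosidase, was 0.28 higher (SE 0.05), Asah1, acid ceramidase, 0.26 (SE 0.05) and Tpp1, a peptidase, 0.18 (SE 0.04). Ctss, cathepsin S, was lower by 0.48 (SE 0.06, adjusted p = 3.2e-05). The counts against parental cells were 2 higher and 1 lower without the block, where Asah1 (adjusted p = 0.0525) and Tpp1 (0.444) lost their calls, and 5 and 1 after quantile normalization.

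Of 42 genes of clathrin endocytosis and endosome sorting 9 were called higher and 1 lower (23.8%, median 0.07), beside 1910 of the 9975 bright genes in general. Dnm1, a dynamin that pinches off vesicles, stood out at 0.98 (SE 0.05, adjusted p = 2.07e-10), with arrays of 7.69 to 7.96 in parental and 8.67 to 8.93 in CIR-3 cells. Dnajc6, the uncoating cofactor auxilin, was lower by 0.41 (SE 0.04, adjusted p = 2.9e-06). Synj1 (0.20) and Eea1 (0.19) were among the higher members. Without the block 1 gene was called in each direction, and Synj1 (adjusted p = 0.276) and Eea1 (0.481) were not. Of 29 scavenger and cargo receptor genes 1 was called higher and 1 lower, and the higher one was Tfr2, a transferrin receptor (0.60, SE 0.07, adjusted p = 2e-05).

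Part of the unfolded protein and amino acid response genes were called higher, by small amounts. Of 29 genes 11 were called higher and 0 lower (37.9%, median 0.10), 5 and 0 against CIR-1, and 7 and 0 against CIR-2. Of the 29 genes 28 were bright. Bright genes in general leaned higher against parental, CIR-1 and CIR-2 cells, by the counts given above. Trib3, an inhibitor of Akt induced by stress, was 0.29 higher (SE 0.07, adjusted p = 0.0163), Edem1, which hands misfolded proteins to degradation, 0.21 (SE 0.04, adjusted p = 0.00149), Herpud1 0.21 (SE 0.05) and the folding helper Dnajc3 0.19 (SE 0.05). Xbp1, the transcription factor of the pathway, was 0.15 higher (SE 0.04). Without the block 1 gene was called higher and 0 lower, and the adjusted p values of Trib3, Herpud1, Dnajc3 and Xbp1 ran from 0.141 to 0.199. With the exon-level values 0 were called in either direction.

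Many genes of G1/S and DNA replication were called lower in CIR-3 cells. Of 33 genes 0 were called higher and 18 lower (54.5%), with a median of -0.13. Pole and Pold1, catalytic subunits of the replicative polymerases, were lower by 0.28 (SE 0.06 and 0.04). Cdt1, which loads the replicative helicase, was lower by 0.24 (SE 0.04) and Ccne1, cyclin E1, was lower by 0.21 (SE 0.04). Pole read 11.31 to 11.43 in parental and 10.91 to 11.29 in CIR-3 arrays, without overlap. The same list had 17 lower genes in CIR-1 and 22 in CIR-2, comparisons that share the parental arrays, and 0 lower genes in CIR-3 against either line. The count was 25 after quantile normalization, 6 with centred arrays and 4 without the block, with 0 higher in each. Without the block the calls of Cdt1 (adjusted p = 0.203) and Ccne1 (0.0827) ended. Of 29 G2/M genes 1 was called higher and 0 lower (median 0.03), the spindle checkpoint kinase Ttk (0.12, SE 0.03, adjusted p = 0.477 without the block).

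Lipid handling genes moved in both directions. Of 34 genes 8 were called higher and 3 lower (32.4%, median -0.02). The lipid droplet coats Plin2 and Plin3 were 0.31 higher each (SE 0.05 and 0.06), and Abca1, a cholesterol exporter, 0.30 (SE 0.07). Without the block the calls of Plin2 (adjusted p = 0.0612) and Abca1 (0.387) ended. Atp8b4, a phospholipid flippase gene, was lower by 0.70 (SE 0.10, adjusted p = 0.000123), and stood 2.17 and 2.05 above CIR-1 and CIR-2. Of 22 cholesterol synthesis genes 3 were called higher and 0 lower, and of 27 interferon-stimulated genes 6 and 1.

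**Figure D4:**
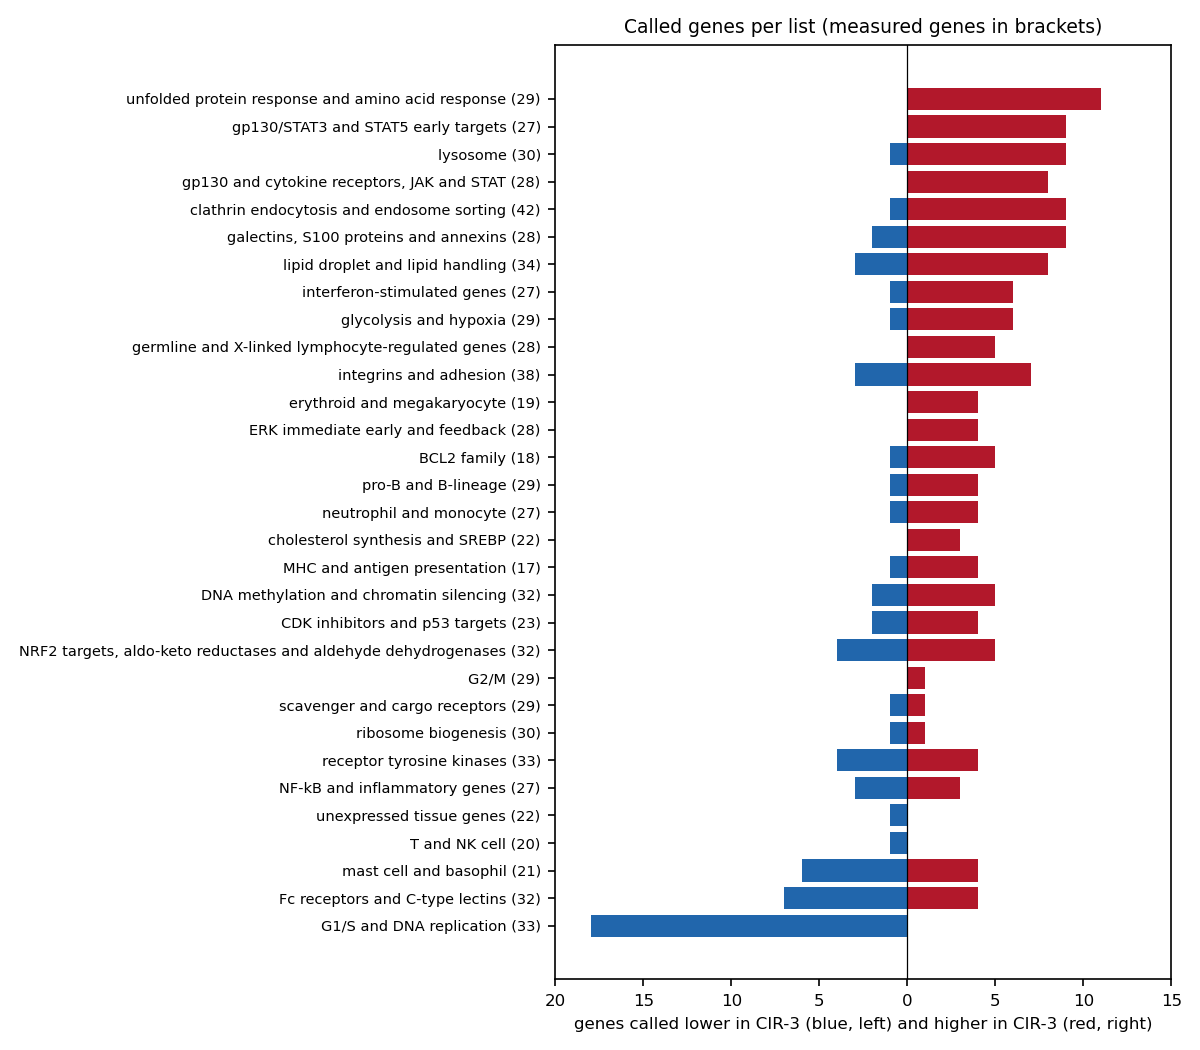
Number of genes called lower (left, blue) and higher (right, red) in CIR-3 than in parental cells (horizontal axis) for each of 31 lists (vertical axis, measured genes in brackets). G1/S and DNA replication has 18 lower and 0 higher genes, and the unfolded protein response list 11 higher and 0 lower.

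The neighbours of the largest rises and falls are read beside the 11.7% of all genes that were called. For the 20 largest rises, 7 of the 40 nearest measured protein-coding neighbours in the GRCm38.p6 order were called, 7 of them higher, and the median neighbour difference was 0.02. Only 1 of these 7 differed by 0.5 or more, 3830403N18Rik, which lies on the X chromosome between Xlr and Gm773 and next to Xlr among measured genes. For the 20 largest falls, 6 of 40 neighbours were called, 4 of them lower. Anxa1 lay beside Aldh1a1, a retinaldehyde dehydrogenase that was lower by 0.71 (SE 0.15, adjusted p = 0.0047). Inpp4b lay beside Il15, a cytokine gene that was lower by 0.60 (SE 0.14, adjusted p = 0.00902, and 0.199 without the block). Anxa3 lay beside Bmp2k, a kinase gene that was 0.44 higher (SE 0.04, adjusted p = 1.42e-06). Lcn2 and Dnm1 were 2 genes apart, as were Lbp and Tgm2, a transglutaminase that was 0.76 higher (SE 0.07, adjusted p = 4.42e-07). These 2 pairs were picked by hand beyond the nearest neighbours. How many genes at that distance were called was not counted, so the pairs do not show clustering.

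The exon-level values of the same arrays added differences that the gene-level values do not show. Of 241576 probe sets 6589 (2.73%) were called, 5170 higher and 1419 lower, and 2450 without the block. In 127 genes with 3 or more probe sets at least 1 differed by 1 or more while the gene-level difference was under 0.5. Mtus2, a microtubule-associated gene, had 18 probe sets. The last 5 by number were 2.56 to 4.66 higher in CIR-3 cells, and the median of the other 13 was -0.11. Its probe set 10527623 read 5.43 to 6.06 in parental and 10.02 to 10.50 in CIR-3 arrays, a difference of 4.66 (SE 0.14, adjusted p = 8.48e-11). The CIR-1 and CIR-2 differences from parental cells at that probe set were -0.22 and 0.28. The gene-level difference of Mtus2 was 0.14, and Mtus2 lies 2 genes from Flt1. Strc, a gene of the inner ear, had 1 of 29 probe sets higher, by 3.99 (SE 0.28). Slc4a5, a bicarbonate transporter, had 5 of 26 and Mylk, myosin light chain kinase, 8 of 37.

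A further kind of partial difference was shared by the receptor lines. The last 3 of 11 probe sets of Tmbim7 were 1.41 to 3.13 higher in CIR-3 cells, and at probe set 10519389 the differences were 3.13, 3.27 and 3.79 in CIR-3, CIR-1 and CIR-2. Nlrc5, a regulator of MHC class I genes, had 1 of 46 probe sets higher, by 2.88 (SE 0.11, adjusted p = 2e-09), and by 2.96 in CIR-1 and 2.71 in CIR-2. Clgn, a chaperone of the testis, had 2 of 17, with 2.34, 2.23 and 2.47 at probe set 10573189. These comparisons share the parental arrays.

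**Figure D5:**
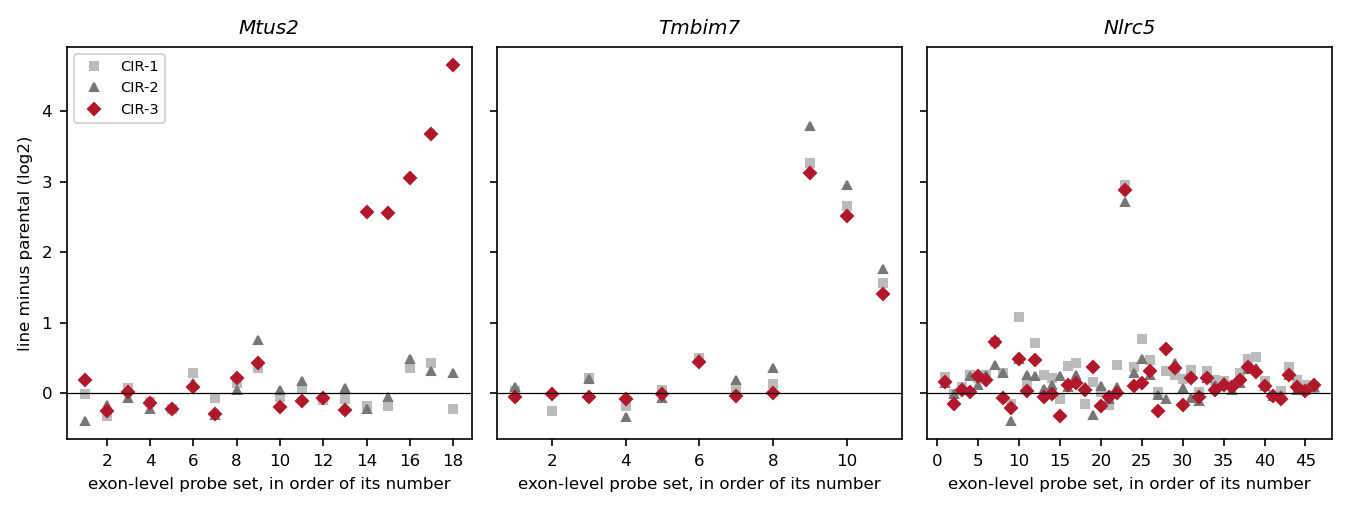
Difference of each receptor line from parental cells on the log2 scale (vertical axis) for the exon-level probe sets of 3 genes, in the order of their numbers (horizontal axis), n = 6 arrays a line. In Mtus2 the last 5 probe sets are higher in CIR-3 alone among these lines, and in Tmbim7 and Nlrc5 the same probe sets are higher in all 3 CIR lines.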

How the data were processed

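The deposited values are log2 signals that the authors made at gene and exon level with Affymetrix Expression Console, per the submitters' processing notes. Algorithm, normalization and log base are not given in the sources used here, and the values were taken as log2 from their range. Per the labels' protocols, 150 ng RNA with a RIN above 8 was used. Of 35556 gene-level probe sets 21789 carried 1 symbol, 1621 several and 12146 none, and the probe set with the highest mean was kept for each of 19938 genes. Entrez numbers matched RefSeq for 21698.

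In R 4.3.3 with limma 3.58.1, 1 mean per group and the title number (1 to 6) as a block were fitted to 24 arrays, leaving 12 residual degrees of freedom, with Benjamini-Hochberg adjustment over all genes. Tests were two-sided, and SE is that of the fitted difference. The number pairs the samples, since deviations from the group means of same-numbered CIR-3 and parental arrays correlated at 0.137 to 0.518 in all 6 pairs. The number of arrays limits the precision. Within the CIR-3 line, arrays 1 and 2, 3 and 4, and 5 and 6 read alike for some genes. Il2ra read 11.65 and 11.66, 10.92 and 10.89, and 12.89 and 13.03 in that order. The block is shared by the lines and does not remove this. The mean comparison treats the 6 arrays of a line as separate, so its p-values may be too small for such genes. The fit was tested on simulated data. Named genes are the 20 largest rises and falls that were called, had the same sign in all 6 pairs and did not overlap, list members of 0.5 or more or else up to 4 a list, the 10 rises and 10 falls farthest from all lines, the 5 smallest interaction p values and 6 genes whatever their values. Marker genes, further list members, neighbours and genes with partial exon differences were named after their values were seen. The comparison, the 31 lists and the rules were chosen with earlier results of these data known. Alternatives were other blocks, array sets, normalizations, filters, weights, the exon-level values and each array left out.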

Additional observations from a re-analysis of the deposited data

How the results depend on the processing

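All 40 of the largest rises and falls kept their call and direction under every alternative that held them, and 78 of all 134 called named genes did. The 40 were picked as large, called and without overlap between the lines in these same arrays, so their kept calls follow largely from that choice. None of the 24 alternatives run on named genes reversed a called named gene, and 48 of the 134 lost their call without the replicate block. The difference between conditions called 0 genes under every alternative run. Without the replicate block, 768 genes were called in the mean of both conditions, 268 unstimulated, 226 with GFP-PFC, 537 against CIR-1, 397 against CIR-2, 94 apart from all lines and 2450 exon-level probe sets. In the 12 compared arrays alone the counts were 995, 317 and 247 for the mean and the 2 conditions. Without arrays numbered 1 and 2 they were 4488, 3501 and 385, and 492 apart. With exon-level values they were 1226, 489 and 331, then 766 against CIR-1, 686 against CIR-2 and 143 apart. With array weights they were 3733, 2137 and 974, then 3076 against CIR-2 and 518 apart. A random block and the fit of all 27 arrays each gave 215 apart, and leaving out dim genes gave 935 with GFP-PFC. The cause of these shifts was not tested. A block of 3 rounds, quantile normalization, centring, every probe set on its own and a trended robust spread kept the total gene count of each comparison within 1.5 times, but not its directions: centring took the lower calls of the mean from 779 to 219, and quantile normalization those with GFP-PFC from 147 to 302. These settings were not run on exon-level probe sets.

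Leaving out 1 array gave 1567 to 3575 genes in the mean, 449 to 2364 unstimulated, 378 to 708 with GFP-PFC, 1024 to 1699 against CIR-1, 924 to 2234 against CIR-2, 203 to 446 apart and 4019 to 8650 exon-level probe sets. The GFP-PFC count was 386 and 409 without CIR-3 arrays 4 and 6, and 396, 378 and 391 without parental arrays 2, 4 and 6. Against CIR-2 it was 1027, 962 and 924 without CIR-3 arrays 3, 5 and 6. For exon-level probe sets, alternatives added after the data were seen, it was 4019 and 4382 without CIR-3 arrays 3 and 4, and 4229, 4336 and 4077 without parental arrays 3, 5 and 6. Dim signal limits the folds, since no detection calls were used here.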

Other observations

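The 3 parental arrays with 100 ng/ml Hyper-IL-6, which enter no comparison above, show the levels that the STAT3 and STAT5 targets reach after 1 h of the cytokine these cells need to grow. Both sets of differences share the unstimulated parental arrays and are given side by side, with no test between them. The parental ranges here are of unstimulated arrays alone, while the CIR-3 ranges pool unstimulated and GFP-PFC arrays. Gadd45g read 8.94 to 9.04 in unstimulated parental arrays, 11.68 to 12.36 with Hyper-IL-6 and 9.39 to 9.89 in CIR-3 arrays. Id2 read 8.12 to 8.74, 9.12 to 10.50 and 8.72 to 9.29 in the same order. Pim2 read 10.88 to 11.65, 12.10 to 12.15 and 11.38 to 12.24, so CIR-3 arrays reached the Hyper-IL-6 range for this gene. CIR-1 arrays (up to 12.19) and CIR-2 arrays (up to 12.35) did so too. Bcl2l1 read 9.51 to 9.67, 9.85 to 9.86 and 9.75 to 10.25, so the CIR-3 range spanned the Hyper-IL-6 range. Parental GFP-PFC array 4 read 9.89 for Bcl2l1, also above the Hyper-IL-6 arrays. Bcl2l1 means were 10.23 in CIR-1 and 10.14 in CIR-2 cells, against 10.07 in CIR-3. Ccnd2, cyclin D2, read 12.61 to 12.73, 12.66 to 12.72 and at least 12.81. For Ccnd2 all CIR-3 arrays lay above the Hyper-IL-6 arrays, but the Hyper-IL-6 mean was only 0.02 above that of unstimulated parental arrays. Ccnd2 thus showed next to no response to the cytokine here.

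Among the targets with the largest Hyper-IL-6 differences, Osm, Lif, Socs3, Il10, Pim1 and Cish did not pass the test in CIR-3 cells, while Gadd45g did. Gadd45g stood 3.12 above unstimulated parental cells with Hyper-IL-6 and was 0.52 higher in CIR-3 cells (adjusted p = 0.000153 in limma). The cytokine Osm stood 3.77 above unstimulated parental cells with Hyper-IL-6, and its CIR-3 difference was 0.12 (adjusted p = 0.542 in limma). Lif stood 3.73 above, with a CIR-3 difference of -0.36 (adjusted p = 0.068). Socs3 stood 3.06 above, with 0.03 (adjusted p = 0.912), Il10 2.85 above, with -0.06 (adjusted p = 0.609), and Cish 2.07 above, with 0.06 (adjusted p = 0.626). Pim1 stood 2.28 above, with 0.23 (adjusted p = 0.177 in limma). Targets with smaller responses were mixed. Id2 (1.60 above) and Id1 (1.47) were called higher in CIR-3 cells, by 0.56 and 0.29. Fos (1.77), Irf1 (1.52) and Junb (1.46) were not called.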
